A study of Mus musculus with 2 samples.

Results

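The genes described here are the fibroblast growth factor (FGF) pathway genes of the embryonic mouse heart: 22 ligand genes, 5 receptor genes and 9 feedback and target genes, 36 in all. They were chosen by gene symbol, whatever their level, and all 36 were found among the 42462 genes of the deposited tables that matched the GENCODE M21 annotation. Total RNA longer than 200 nt was sequenced from hearts of B6NCrl embryos at embryonic day 13.5, starting from 10 ng. The 2 libraries are biological replicates 1 and 2 of 1 group, each from male and female embryos pooled, with no mutant, treated or second-tissue group. The labels give both tissue samples the same donor entry, and the comparisons are therefore between genes within each library. Genes are called apart by the credibility intervals deposited for each library, which do not measure the spread between the libraries. That spread is given as SD.

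FGF ligands bind receptor tyrosine kinases (Fgfr1 to Fgfr4) together with heparan sulfate on the cell surface, and the receptors signal through docking proteins into the RAS-MAPK cascade. That cascade turns on genes such as Etv4, Etv5, Dusp6 and the Sprouty genes, and several of these products dampen the same cascade. In the embryonic heart, ligands from epicardium and endocardium act on the muscle wall, while FGF homologous factors stay inside cells and bind sodium channels rather than FGF receptors.

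Levels are TPM, an abundance scaled by transcript length and library depth, given for replicate 1 and replicate 2 in that order, then as mean ± SD (n = 2). The estimated reads summed to 36733400 and 36060765, and 1 TPM in a 1 kb transcript stood for 29.3 and 27.4 reads. Spike-in RNA held 5.96% and 2.56% of the reads, and 11.1% and 5.04% of the TPM. All 8 heart muscle markers were detected, at 110 to 9672 TPM, as were all 6 epicardial and all 6 endothelial or endocardial markers. Markers of neighbouring organs were also measured: 8 liver markers summed to 78.1 and 376 TPM with 6 detected, and 7 lung and foregut markers to 23.6 and 22.9 TPM with 4 detected. Of the neural markers, 2 of 7 were detected, Stmn2 at 4.70 and 6.57 TPM and Tubb3 at 3.82 and 3.32 TPM. Sox1 and Olig2 were at 0 reads. Globin genes held 135500 and 90290 TPM, and their part in the other levels was not tested.

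A gene counts as detected at 1 TPM or more in both libraries, which 57.3% of 21474 protein-coding genes reached. Of the 36 FGF pathway genes, 19 were detected: 7 of 22 ligands, 4 of 5 receptors and 8 of 9 feedback and target genes. The median level was 0.345 TPM for ligands, 10.3 TPM for receptors and 5.50 TPM for feedback and target genes, against 3.07 TPM for all protein-coding genes. The share detected over all 36 members, 52.8%, lay near that of protein-coding genes in general. A low level in whole-heart RNA can mean few expressing cells or little RNA in each, which cannot be told apart here.

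**Figure D1:**
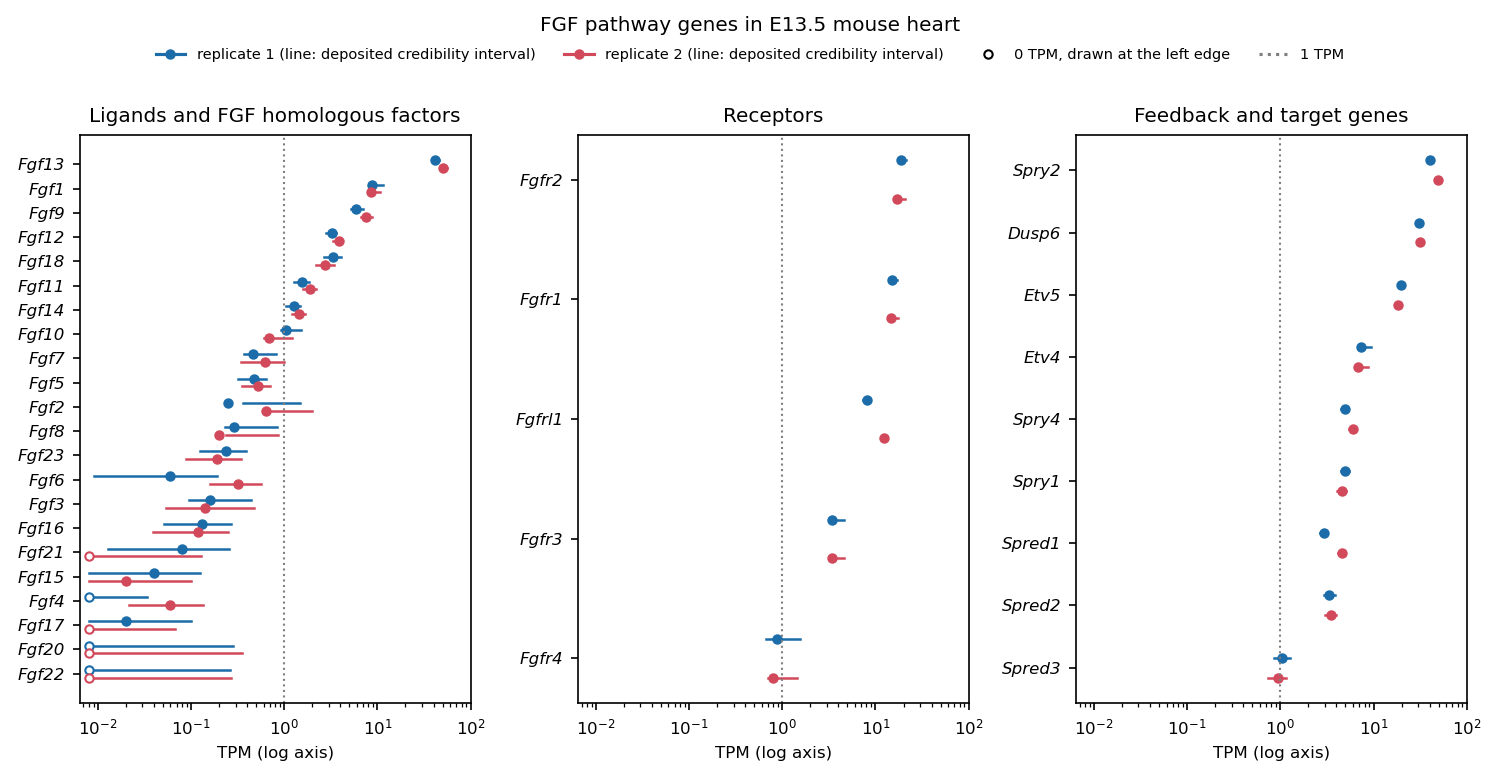
TPM (log axis) of each FGF pathway gene in replicate 1 (blue) and replicate 2 (red), by role, with lines for the deposited credibility intervals, whose level is not stated, and a dotted line at 1 TPM. The highest means were Fgf13 at 46.6 and Spry2 at 44.3 TPM, Fgfr2 (17.9) and Fgfr1 (15.0) were not called apart, and 14 of 22 ligands lay under 1 TPM in both libraries.

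Among the 18 secreted ligands, 3 were detected: Fgf1, Fgf9 and Fgf18. Fgf1, a ligand able to bind every FGF receptor, was at 8.82 and 8.44 TPM (8.63 ± 0.269). Fgf9, an epicardial and endocardial signal to the growing muscle wall, was at 5.90 and 7.52 TPM (6.71 ± 1.15). Fgf18, best known from skeletal and lung development, was at 3.32 and 2.74 TPM (3.03 ± 0.410). These 3 genes held 84.8% and 84.2% of the TPM of the secreted ligands. The order of Fgf1 and Fgf9 was not settled, since their credibility intervals were apart in replicate 1 (8.08 to 11.3 against 5.21 to 7.0) and overlapped in replicate 2 (7.95 to 10.8 against 6.74 to 8.76).

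The other 15 secreted ligands ranged from 0 to 0.865 TPM as means. Fgf10, a ligand of the IIIb form of Fgfr2 that marks heart progenitors and lung mesenchyme, lay closest to the threshold. It was at 1.04 and 0.690 TPM, from 122 and 76 reads. It passed 1 TPM in replicate 1 only. Fgf7, of the same subfamily, was at 0.460 and 0.620 TPM, and Fgf5, of the Fgf4 subfamily, at 0.470 and 0.520 TPM. Fgf8, a signal of early heart progenitors and the outflow tract, was at 0.290 and 0.200 TPM from 6 reads in each library. Fgf16, a ligand of the Fgf9 subfamily active in embryonic and perinatal heart muscle, was at 0.130 and 0.120 TPM, from 6 and 5 reads.

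The remaining low ligands rested on few reads. Fgf3 had 10 and 5 reads, Fgf6 2 and 10, Fgf4 0 and 5, and Fgf17 1 and 0. The endocrine ligands, which reach distant organs through the blood and need Klotho proteins as co-receptors, were as low: Fgf23 had 12 and 9 reads, Fgf15 2 and 1, and Fgf21 2 and 0. No pair of the 3 endocrine ligands was apart. Fgf20 and Fgf22 had 0 reads in both libraries, where a count of 3 reads, the limit that a count of 0 allows, equals 0.110 and 0.117 TPM for Fgf20 and 0.263 and 0.281 TPM for Fgf22. These limits cover counting error only. The deposited credibility intervals reached further for Fgf20, to 0.283 and 0.352 TPM. For Fgf22 they ended slightly below these limits, at 0.259 and 0.270 TPM.

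Fgf2, a ligand released without a signal peptide, was at 0.250 and 0.640 TPM from 4 and 8 reads. Its value in replicate 1 lay below its own credibility interval of 0.359 to 1.46 TPM, so its level is uncertain. Its exons share 640 bases with the opposite-strand gene Nudt6, at 7.55 and 9.42 TPM. Fgf20 shares 202 bases with Micu3 (6.68 and 6.99 TPM) and Fgf22 shares 82 bases with Rnf126 (44.4 and 49.7 TPM), both on the opposite strand. The sources used here do not say whether counting used strand, so reads in those stretches may belong to either gene.

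Subfamily members were set against each other in each library. A pair was called apart when its credibility intervals did not overlap in either library and the direction was the same. This held for 31 of 44 pairs (70.5%), a share that was not measured for pairs of other genes. Fgf9 stood above Fgf16 by 45.4-fold in replicate 1 and 62.7-fold in replicate 2. Fgf18 stood above Fgf8 by 11.4-fold and 13.7-fold, but Fgf8 in replicate 2 lay below its own interval of 0.240 to 0.848 TPM, and the deposited posterior means gave 6.40-fold and 5.28-fold. Of the subfamily pairs that hold Fgf1, Fgf9 or Fgf18, each was called with that gene as the higher one. Down the order of all 22 ligands, 2 of 21 neighbouring pairs were apart (Fgf13 over Fgf1, and Fgf9 over Fgf12), so the order is mostly unresolved between neighbours. Of pairs in which both ligands were undetected, 5 were apart, Fgf10 over Fgf3 and Fgf22, Fgf7 over Fgf22, Fgf5 over Fgf4 and Fgf8 over Fgf17.

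Several ligand genes lie next to each other. On chromosome 7, Fgf3 (144838083 to 144844436) is followed after 2.93 kb by Fgf4 (144847367 to 144865243) and after a further 31.3 kb by Fgf15 (144896531 to 144900953). All 3 were under 1 TPM in both libraries. Fgf6 and Fgf23, 44.7 kb apart on chromosome 6, were both low as well. Fgf1 and Spry4 are neighbours on chromosome 18, 237 kb apart with no protein-coding gene between them, and both were detected.

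The 4 FGF homologous factors were all detected, at a higher summed level than the secreted ligands. They summed to 48.1 and 58.4 TPM, against 21.3 and 22.2 TPM for the 18 secreted ligands. Fgf13, on the X chromosome (59062145 to 59568071, minus strand), had the highest mean of all 36 genes with 42.0 and 51.2 TPM (46.6 ± 6.49), from 1878 and 1973 reads. Its interval overlapped that of Spry2 in both libraries, so the lead over Spry2 is not settled. Fgf13 alone held 60.6% and 63.5% of the TPM of the 22 ligand genes. Fgf12, the next of the family, was at 3.23 and 3.85 TPM. Fgf11 was at 1.57 and 1.91 TPM and Fgf14 at 1.26 and 1.44 TPM, and these last 2 were not apart.

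Fgf13 exceeded Fgf12 by 13.0-fold and 13.3-fold, Fgf11 by 26.8-fold in each library, and Fgf14 by 33.3-fold and 35.5-fold. The spread of the ratio between libraries was small beside its size (log2 difference of Fgf13 and Fgf12 3.72 ± 0.02, n = 2). Fgf13 was spread over several transcripts. Its leading model, Fgf13-202 with 192 codons, held 40.0% and 34.5% of the gene's TPM, and Fgf13-201 with 245 codons held 14.6% and 13.4%. Fgf13-205, Fgf13-206 and Fgf13-203 held 17.2%, 15.9% and 10.5% on average. Fgf12 had 1 listed transcript, and Fgf14-202 held 97.4% and 100% of Fgf14.

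Fgfr1 and Fgfr2 were the leading receptor genes. Fgfr2 was at 18.7 and 17.1 TPM (17.9 ± 1.10) and Fgfr1 at 15.1 and 14.8 TPM (15.0 ± 0.198). Together they held 88.8% and 88.4% of the TPM of the 4 kinase receptors. Fgfrl1, a receptor-like gene without a kinase domain, was at 8.12 and 12.4 TPM (10.3 ± 3.05). Fgfr3 was at 3.40 TPM in both libraries, and Fgfr4 was under the threshold in both, at 0.870 and 0.800 TPM from 59 and 71 reads. By the deposited posterior means Fgfr4 was just above it, at 1.08 and 1.04 TPM.

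Of the 10 receptor pairs, 9 were called apart, of which Fgfr2 over Fgfrl1 (2.30-fold and 1.38-fold) rests on the transcript model described next. Fgfr1 exceeded Fgfr3 by 4.45-fold and 4.36-fold, and Fgfr3 exceeded Fgfr4 by 3.91-fold and 4.25-fold. Fgfr1 exceeded Fgfrl1 by 1.86-fold and 1.19-fold. The pair not called was Fgfr2 over Fgfr1, at 1.24-fold and 1.15-fold, with intervals apart in replicate 1 only.

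The Fgfr2 level contains a transcript model that reaches into another gene. The leading Fgfr2 model, Fgfr2-217, held 29.9% and 30.1% of the gene's TPM, or 5.58 and 5.15 TPM. In GENCODE M21 its first 2 exons, on chromosome 7 at 133123141 to 133123350 and 133081757 to 133081860, lie 2857 and 2815 kb from the other Fgfr2 exons. All 314 bases of these exons (210 and 104) overlap exons of Ctbp2 on the same strand. Ctbp2, a gene for a transcriptional co-repressor, was at 36.3 and 41.5 TPM. The model is 2425 nt long and codes for 182 codons. It continues with the last exons of Fgfr2, the longest of them 1673 nt.

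Without Fgfr2-217, Fgfr2 summed to 13.1 and 12.0 TPM (12.5 ± 0.792), below Fgfr1, which then exceeded it by 1.15-fold and 1.24-fold. Leaving out the whole model also drops its reads in Fgfr2 exons, so these sums are the lowest case for Fgfr2. Against Fgfrl1, Fgfr2 without this model was at 1.61-fold in replicate 1 and 0.964-fold in replicate 2, so that this pair was no longer in 1 direction. The order of these receptors therefore turned with 1 transcript model, a setting chosen after its values were seen. How many of that model's 380 and 328 reads came from Ctbp2 was not tested. The estimated counts of Fgfr2 were not whole numbers (1325.33 and 1234.94), which marks reads shared with another gene. Of the other 35 members, Fgf14 also had a count that was not whole.

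Fgfr1, Fgfr2 and Fgfr3 each have a pair of mutually exclusive exons, IIIb and IIIc, for the last part of the third immunoglobulin-like loop (IgIII). The exon used sets which ligands bind: IIIb forms are typical of epithelium, and IIIc forms are typical of mesenchyme. The IIIb form of Fgfr2 responds to Fgf7 and Fgf10. Exon sequences are shown for Fgfr3 in both forms and for Fgfr2 IIIb, the receptors in which both forms were measured, because the sharing of receptor RNA between these exons is the main transcript-level result. They were read from GENCODE M21 transcripts on GRCm38, the assembly also called mm10, 5′ to 3′ on the coding strand. The IIIb exons are chr7:130199758-130199905 (Fgfr2, minus strand) and chr5:33731281-33731431 (Fgfr3, plus strand), and capitals in them mark bases identical in an alignment with a gap of 3 nt in the shorter Fgfr2 exon.
Fgfr2 IIIb: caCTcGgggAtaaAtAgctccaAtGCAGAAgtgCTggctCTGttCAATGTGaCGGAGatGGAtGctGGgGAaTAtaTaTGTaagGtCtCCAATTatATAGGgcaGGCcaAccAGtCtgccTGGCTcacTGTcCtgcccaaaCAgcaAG
Fgfr3 IIIb: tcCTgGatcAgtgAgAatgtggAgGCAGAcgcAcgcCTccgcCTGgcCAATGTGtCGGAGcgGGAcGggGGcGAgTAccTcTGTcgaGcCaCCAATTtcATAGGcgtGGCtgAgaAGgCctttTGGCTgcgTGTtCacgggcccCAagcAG
The IIIc exon of Fgfr3, chr5:33732117-33732261, lies downstream of its IIIb exon and is 145 nt long.
Fgfr3 IIIc: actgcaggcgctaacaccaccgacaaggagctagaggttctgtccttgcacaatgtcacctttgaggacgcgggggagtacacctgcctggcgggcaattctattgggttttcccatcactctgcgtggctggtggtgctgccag

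With the gap placed after base 29 of the Fgfr2 exon, where the most bases match, the IIIb exons of Fgfr2 and Fgfr3 were identical at 77 of 148 positions (52.0%).

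Fgfr1 RNA assigned to 1 of these exons was IIIc throughout. Its IIIc transcripts summed to 12.0 and 11.4 TPM, and the models with IIIb alone were listed at 0 TPM in both libraries. A further Fgfr1 model holds both exons and was left out of these shares. It was at 0.340 and 0.460 TPM, from 14.5 and 18.6 estimated reads. By the deposited posterior means, the IIIc share of Fgfr1 was 97.4% and 96.1%, so a small IIIb level is not shown to be absent. Fgfr2 held both forms: IIIc transcripts were at 5.88 and 5.52 TPM and IIIb transcripts at 2.75 and 3.75 TPM, an IIIc share of 68.1% and 59.5% (63.8% ± 6.07). Fgfr3 also held both, with an IIIc share of 68.7% and 49.5% (59.1% ± 13.6). IIIc was the larger form of Fgfr2 in both libraries, and for Fgfr3 the libraries fell on either side of equal shares.

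Summed over the 3 receptors, IIIc transcripts held 84.7% and 77.9% of the TPM assigned to either form. Much of the Fgfr2 level could not be assigned: transcripts with neither exon held 53.7% and 45.9% of Fgfr2, 18.4% and 20.0% of Fgfr1, and 26.2% and 13.8% of Fgfr3. For Fgfr2 these include Fgfr2-217. Of the 7 lung and foregut markers, 4 were detected beside the IIIb forms: Epcam, Cdh1, Sftpc and Nkx2-1. The epithelial genes among them were Epcam (8.93 and 8.31 TPM) and Cdh1 (2.51 and 2.44 TPM). Shh and Sox2 were under 1 TPM in both libraries, and Foxa2 was under it in replicate 2 only. Epicardial markers were present as well, and the part of either set of markers in the IIIb level was not tested.

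**Figure D2:**
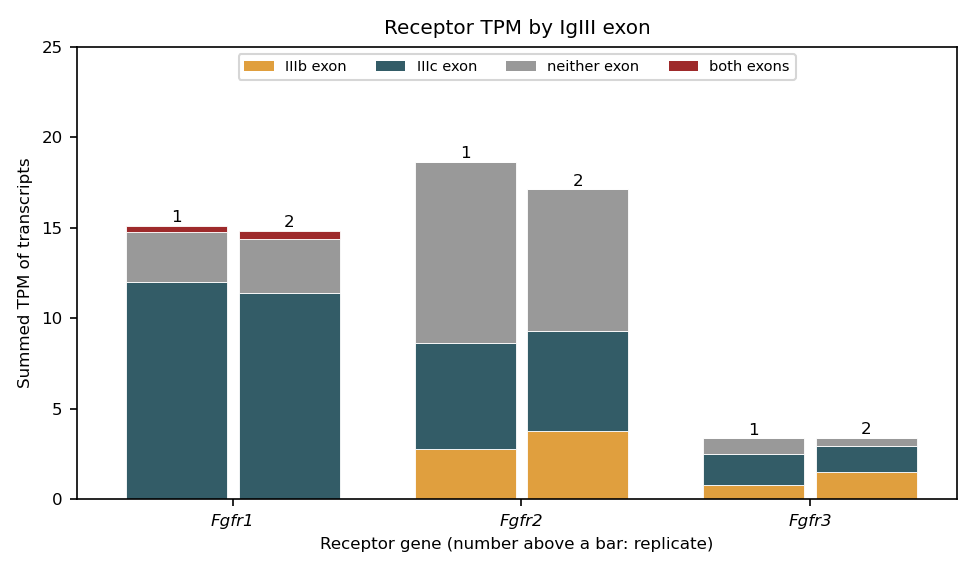
Summed TPM of Fgfr1, Fgfr2 and Fgfr3 transcripts in replicates 1 and 2 (number above each bar), divided by the IgIII exon they hold. Fgfr1 shows no segment of IIIb alone and a small segment for a model with both exons (0.340 and 0.460 TPM). Fgfr2 has IIIb segments of 2.75 and 3.75 TPM under its IIIc segments, and the grey segment without either exon is largest in Fgfr2.

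A further exon was compared between Fgfr1 and Fgfr2, that for the first immunoglobulin-like loop (IgI), an outer part of the receptor that some forms skip. This exon was examined after transcript values had been seen. It was taken as the third exon of the longest coding model with 18 exons and a level above 0, and looked for among transcripts that hold the exon before it and a IIIb or IIIc exon. Transcripts without it held 75.0% and 76.0% of this RNA for Fgfr2, and 17.0% and 25.1% for Fgfr1. All 6 Fgfr3 models of this kind hold the exon, so its use could not be measured in Fgfr3. The share that skips IgI was thus higher in Fgfr2 than in Fgfr1 in both libraries, a description with no test.

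The Fgfr2 share above is a sum over models named here, so these are not separate from it. Only Fgfr2-215 held IgI at a level above 0 TPM. Fgfr2-207, a IIIc model without IgI that codes for 723 codons, held 19.9% and 19.2% of Fgfr2. Fgfr2-215, a IIIc model with IgI (840 codons), held 11.6% and 12.9%. Fgfr2-211 and Fgfr2-208, IIIb models without IgI, held 12.0% and 6.33% on average, and Fgfr2-221, a retained intron, held 8.50%. The Fgfr2-215 and Fgfr2-208 estimates were loose, with an interval of 0.400 to 2.45 TPM for Fgfr2-215 in replicate 1. For Fgfr2-208 the intervals were 4.4e-05 to 1.14 TPM in replicate 1 and 9.0e-04 to 1.32 TPM in replicate 2. The part of the Fgfr2 IIIb level that this model holds is therefore uncertain. The Fgfr2 share that skips IgI is uncertain as well, since its IgI part rests on Fgfr2-215 alone.

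Fgfr1 was led by Fgfr1-202 (820 codons), at 36.4% and 36.8% of the gene. Fgfr1-201 (822 codons) held 29.5% and 14.4%, and Fgfr1-203, which skips IgI and codes for 733 codons, held 13.5% and 19.4%. The retained-intron model Fgfr1-206 held 14.9% and 14.4%. Fgfr1-202 was steady between libraries, while Fgfr1-201 differed by more than any other of these 4 models.

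Fgfr3 was divided among close variants whose shares moved between libraries. Fgfr3-211, the 1 of 3 IIIb models listed above 0 TPM, held 23.1% and 43.3%, and Fgfr3-201, a IIIc model, 17.2% and 38.6%. Fgfr3-209 and Fgfr3-210, also IIIc, held 16.5% and 13.1% in replicate 1 and 0% in replicate 2. The interval of Fgfr3-211 in replicate 1 began near 0 and reached 1.01 TPM, so these transcripts are poorly told apart at 332 and 355 reads for the whole gene. Fgfr3-205, a retained intron, held 12.7% and 13.8%.

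Fgfr4-201 held 66.5% and 100% of Fgfr4, and the rest in replicate 1 was the retained-intron model Fgfr4-202. Fgfrl1-201 held 70.8% and 92.5% of Fgfrl1, with 29.2% and 7.46% in Fgfrl1-202. A single transcript held over 50% in both libraries for these 2 of 5 receptors. Among the 4 receptors at 1 TPM or more it did so for Fgfrl1 alone, against 71.5% of protein-coding genes at that level with 2 or more transcripts. All 58 receptor transcripts were found in GENCODE M21, 50 of them at the deposited length. Exon content comes from that later release, and among the named models Fgfr1-201, Fgfr1-203, Fgfr2-211, Fgfr3-205, Fgfrl1-201 and Fgfrl1-202 differ from it in length.

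**Figure D3:**
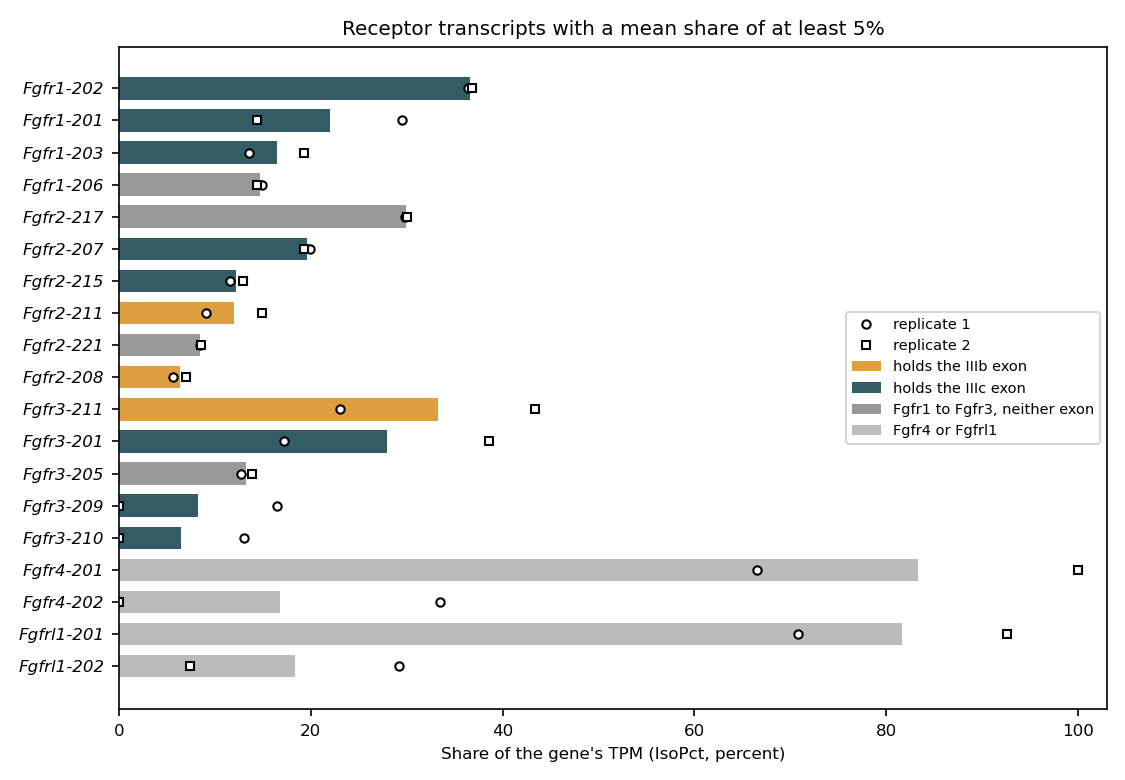
Share of each receptor gene's TPM held by transcripts with a mean share of at least 5%, as bars for the mean of 2 libraries with a circle for replicate 1 and a square for replicate 2. Colours give the IgIII exon. Fgfr2-217, which holds neither exon, leads Fgfr2 at 30.0%, and Fgfr3-211 has the widest gap between libraries among the IIIb models.

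The feedback and target genes were the highest of the 3 roles in summed level, at 115 and 125 TPM. Spry2, a Sprouty inhibitor of receptor signalling, was at 39.9 and 48.6 TPM (44.3 ± 6.14). Dusp6, the phosphatase that inactivates ERK in the cytoplasm, was at 30.7 and 31.5 TPM (31.1 ± 0.566). Etv5, an ETS transcription factor induced by FGF signalling, was at 19.5 and 18.1 TPM (18.8 ± 0.983). Etv4, its close relative, was at 7.35 and 6.73 TPM (7.04 ± 0.438). These 4 stood in the order Spry2, Dusp6, Etv5, Etv4, each apart from the next in both libraries.

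The other Sprouty and Spred genes were lower. Spry4 was at 4.94 and 6.05 TPM and Spry1 at 5.0 and 4.61 TPM. Spry2 exceeded Spry1 by 7.99-fold and 10.5-fold and Spry4 by 8.08-fold and 8.03-fold, while Spry4 and Spry1 were not called apart. Spred genes code for Sprouty-related inhibitors that act on RAS with neurofibromin. Spred1 was at 2.96 and 4.63 TPM, Spred2 at 3.33 and 3.47 TPM, and Spred3 at 1.04 and 0.940 TPM, so that Spred3 was the 1 gene of this role below the threshold. Spred1 and Spred2 changed order between the libraries and were not called apart.

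Of 20 members examined by transcript (the 5 receptors and the other detected genes), 16 had 2 or more listed transcripts. A single transcript held over 50% in both libraries in 10 of these 16, and the leading transcript was the same in both libraries in 15. Without Fgfr4, which is below 1 TPM, these were 9 and 14 of 15 genes, against 71.5% and 91.8% of protein-coding genes at that level with 2 or more transcripts. The exception was Etv4: Etv4-201 (486 codons) held 52.5% and 22.4%, and Etv4-202 (480 codons) held 22.3% and 44.1%. Spred2 was divided between Spred2-201 at 49.5% and 69.0% and Spred2-202 at 47.6% and 31.0%. Fgf1-201 held 70.4% and 81.9% of Fgf1, Fgf9-201 64.8% and 75.8% of Fgf9, and Fgf18-201 55.5% and 100% of Fgf18. Fgf11-202, Spry1-203 and Spred1-201 led their genes at 69.7%, 80.8% and 94.5% on average, and Etv5-201 held 100% in both libraries. Spry2, Spry4, Dusp6 and Fgf12 had 1 listed transcript each.

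The 2 libraries were compared on read counts scaled by TMM, as the log2 ratio of replicate 2 to replicate 1 with 0.5 added. Each side is 1 library, so no p-value applies. Of the 22 members with a mean of at least 50 reads, 0 were 2-fold apart, against 1.01% of 13766 genes. Their median ratio was 0.01, with 11 members higher and 11 lower in replicate 2. The 14 members under 50 reads were all ligands.

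The lowest ratio was that of Fgf10 at -0.72, and 0.821% of all genes lay below it. Fgf18 was at -0.36 and Spred3 at -0.32. Of the lung and foregut markers with a mean of at least 50 reads, Nkx2-1 was at -0.88 and Foxa2 at -0.85. Epcam was at -0.25, Cdh1 at -0.19 and Sftpc at 0.11, and the part of these markers in the Fgf10 value was not tested. The highest ratios were those of Fgfrl1 at 0.51 (589 and 864 reads) and Spred1 at 0.43 (503 and 701 reads). Credibility intervals of TPM were apart between the libraries for 5 of the 19 detected members (Fgf13, Fgfrl1, Spry2, Spry4 and Spred1, each with the higher TPM in replicate 2), against 34.1% of detected protein-coding genes. TPM ratios were shifted upward over all genes (median 0.14), and on scaled counts Fgf13 was at 0.03, Spry2 at 0.14 and Spry4 at 0.15. Fgfr4, a receptor known for its role in liver, was at 0.22, beside liver markers that ranged from 1.33 to 2.77 where they had 50 reads or more.

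**Figure D4:**
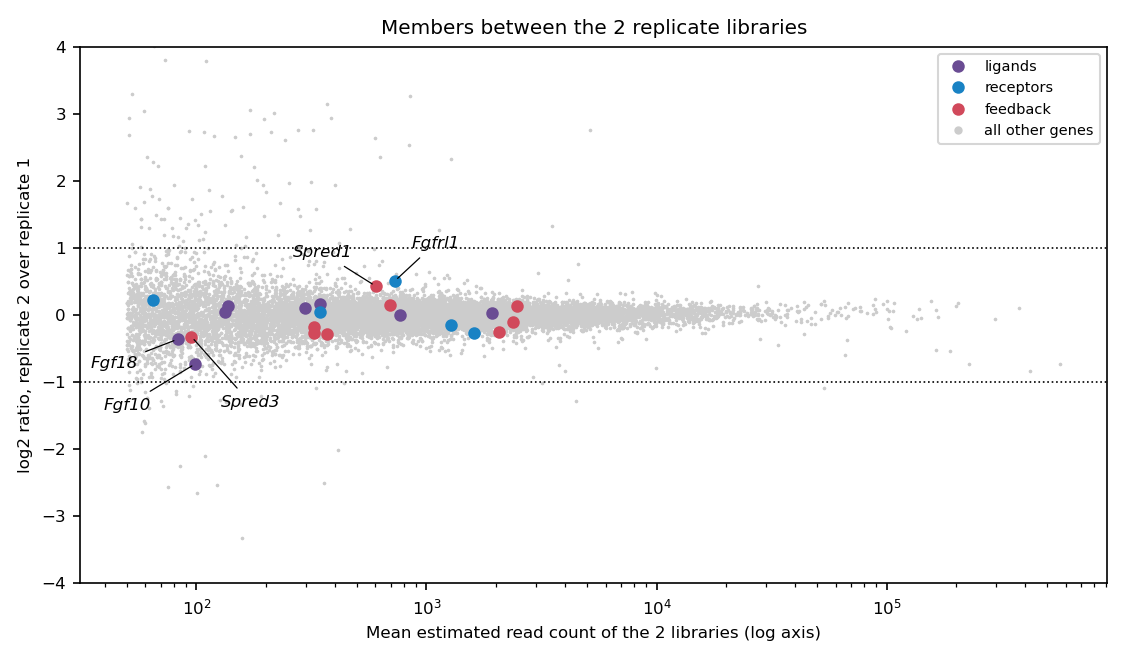
Log2 ratio of replicate 2 to replicate 1 against mean estimated read count (log axis) for 13766 genes (grey) and 22 FGF pathway genes (coloured by role), with dotted lines at 2-fold. Every coloured point lies between the dotted lines, from Fgf10 at -0.72 to Fgfrl1 at 0.51, and 7 grey points lie outside the axis.

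The rest of the pathway was described from 7 lists of genes that are not members, and 61 of their 71 genes were detected. The RAS-MAPK cascade had a median of 60.1 TPM and all its 12 genes detected. The kinase genes Map2k2 (119 ± 4.51 TPM) and Araf (79.8 ± 12.9 TPM) were among the highest. The 13 receptor adaptor and docking genes had a median of 8.20 TPM and were likewise all detected, headed by Grb2 (68.9 ± 0.446 TPM), Shc1 (51.7 ± 3.46 TPM) and Crkl (23.0 ± 1.36 TPM). Both lists therefore lay fully above the threshold, and receptors and ligands did not.

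Heparan sulfate proteoglycans, the surface and matrix partners of FGF ligands, had a median of 34.4 TPM, with 11 of 12 genes detected. Gpc3, a glypican, led at 397 and 441 TPM (419 ± 30.7), followed by Gpc1 (45.8 ± 6.43 TPM) and the perlecan gene Hspg2 (39.5 ± 0.841 TPM), with Gpc5 at 0.250 TPM. Of 13 genes for heparan sulfate enzymes, 10 were detected, with the highest levels in Sulf2 (80.3 ± 3.29 TPM), Ext2 (56.1 ± 4.24 TPM) and Sulf1 (31.8 ± 3.77 TPM). The 3 below 1 TPM were Ndst3, Ndst4 and Hs6st3. Sulf1 and Sulf2 remove sulfate groups from heparan sulfate outside the cell, and Ext2 is part of the enzyme that extends the chains.

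Co-receptors and membrane partners were mixed, with 4 of 8 detected. Cdh2 (126 ± 6.17 TPM), Ncam1 (52.5 ± 3.44 TPM) and Flrt2 (20.2 ± 0.410 TPM) led. The Klotho genes, co-receptors of the endocrine ligands, were low, with Kl at 0.280 and 0.170 TPM and Klb at 0.0300 and 0.370 TPM (3 and 34 reads). Klb was thus higher in the library with the higher liver markers, whose part in its level was not tested. Il17rd was at 0.685 TPM on average, and Fgfbp3, a carrier of FGF ligands, at 3.24 TPM against 0.420 TPM for Fgfbp1.

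Of 11 other response genes of FGF and MAPK signalling, 10 were detected (median 7.62 TPM). Ccnd1, a cyclin of the G1 phase, led at 40.6 and 54.8 TPM (47.7 ± 10.1), followed by Ier2 (35.1 ± 2.31 TPM) and Myc (27.1 ± 0.615 TPM), and Fosl1 was at 0.360 TPM. These genes also respond to many other signals. Etv1, the ETS gene related to Etv4 and Etv5, was at 15.9 and 19.1 TPM, above Etv4 in both libraries.

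**Figure D5:**
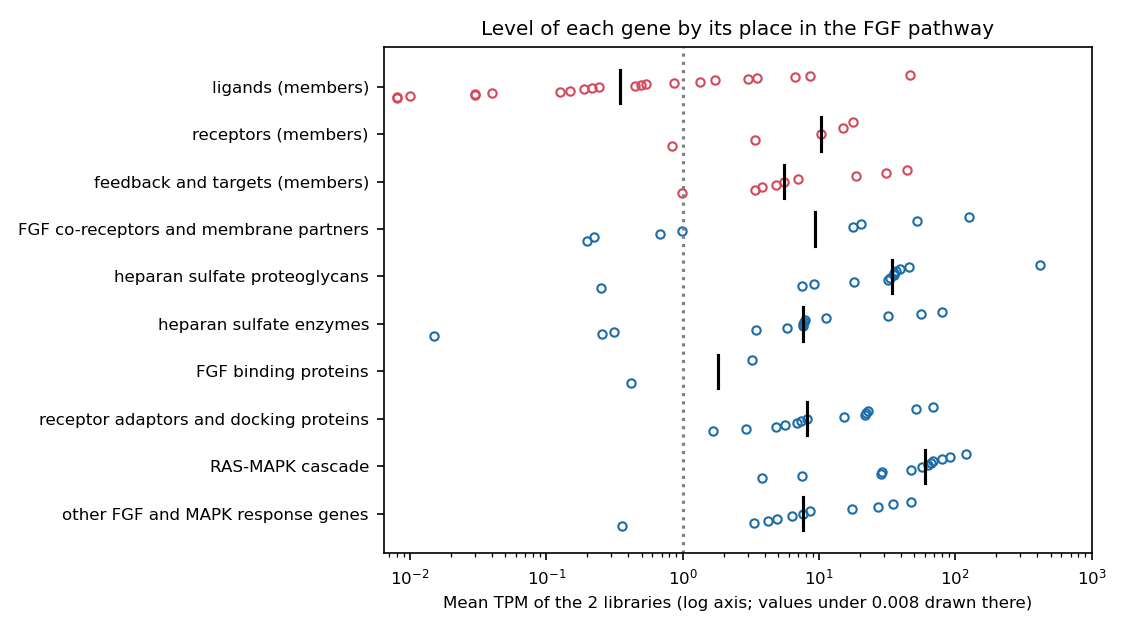
Mean TPM of the 2 libraries (log axis) for each gene, by its place in the FGF pathway, with a black line at the median of each list and a dotted line at 1 TPM. Medians run from 0.345 TPM for ligands to 60.1 TPM for the RAS-MAPK cascade, and every adaptor and cascade gene lies to the right of the dotted line.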

How the data were processed

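The 2 heart libraries form 1 group. Each deposited table was made from 1 library's transcriptome alignments on mm10 and annotation M4, per the deposited file descriptions. Names and versions of the aligner and quantifier: not given in the sources used here. The authors estimated an expected count for each gene and transcript from these alignments, without normalization, per the file headers. The deposited TPM covers all features, spike-ins included, and comes with posterior means and with credibility bounds of unstated level, per the file headers. The percent column (IsoPct) of the deposited transcript files divides the TPM of a gene among its transcripts.

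Of 43346 Ensembl genes, 42462 matched GENCODE M21 (GRCm38) once version numbers were removed. Spike-ins and 26248 numbered features were left out of library sizes. Expected counts were rounded and scaled by TMM with edgeR 4.0.16, and DESeq2 1.42.0 size factors were an alternative (R 4.3.3, Python 3.11.15). Detection needed 1 TPM in both libraries, and ratios a mean count of 50. The ratio step was tested on simulated data. With 1 group of 2 libraries no test was made. Depth was 36733400 and 36060765 reads, so 1 TPM in 1 kb rested on 29.3 and 27.4 reads.

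Exons IIIb and IIIc were found as exons that replace each other between the same neighbours. The members, gene lists and thresholds were chosen with earlier results of these data known. All 36 members are named. Of each other list the 3 highest genes are named, with those below 1 TPM in both libraries where 4 or fewer, and receptor transcripts from a mean share of 5%. Some items that this rule names are not reported here. Etv1, the IgI exon and named marker genes were chosen after their values were seen. Reads lack molecular identifiers, so limits cover counting error only.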

Additional observations from a re-analysis of the deposited data

How the results depend on the processing

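Of 77 alternatives run, 67 stayed within 1.5 times the count, or within 1 SD of the value, reported above, all 26 that left out a replicate among them, which for a mean of 2 values follows from the rule. Without 1 replicate, the detected members numbered 19 to 21 (ligands 7 to 8, receptors 4 to 4, feedback and target genes 8 to 9), pathway genes 61 to 62 and pairs apart 34 to 34. Medians then ranged from 0.27 to 0.42 TPM for ligands, 8.12 to 12.4 for receptors and 5 to 6.05 for feedback and target genes. The IIIc share ranged from 59.5% to 68.1% for Fgfr2 and 49.5% to 68.7% for Fgfr3. At a minimum of 5 TPM, 10 members were detected, 3 of them ligands and 4 feedback or target genes. Posterior means gave 20 detected members, with Fgfr4 gained, a ligand median of 0.51 TPM and an IIIc share of 96.8% for Fgfr1. Expected counts gave an IIIc share of 71.2% for Fgfr2, since they do not correct for transcript length. Scaling by spike-ins put 19 of 22 members at least 2-fold higher in replicate 2, but it moved the median of all genes to 1.29 on the log2 scale and put 93.1% of genes past 2-fold. TPM ratios had a median of 0.14 over all genes. With no count filter, 4 members were 2-fold apart (Fgf4, Fgf6, Fgf17 and Fgf21), each on 12 reads or fewer in all, and 11.9% of all genes. Without Fgfr2-217, an alternative added after seeing the data, the log2 difference of Fgfr2 and Fgfr1 was -0.26 in place of 0.26, and that of Fgfr2 and Fgfrl1 was 0.32 in place of 0.83, with opposite directions in the 2 libraries. Depth limits the low ligands: Fgf20 and Fgf22 had 0 reads, and transcript shares of Fgfr3 rest on 332 and 355 reads. No paired analysis was possible because the labels give 1 group.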
